A study of Rattus norvegicus with 6 samples.

Results

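Macrophages are commonly followed through a small set of transcripts, and 7 of these were examined in healing and intact rat bone: Lyz2, Cd14, Tyrobp, Cd68, Cd163, Csf1r and Trem2. Their probes were found by gene symbol in the array's annotation, after older symbols had been brought to current ones. Of the 7 genes, 6 had a probe, 1 each, among 26481 probes and 12589 named genes. Cd68 had none under its symbol and is not analysed here. The probe taken for Lyz2 carried the older symbol Lyz, and since rat chromosome 7 also holds the neighbouring lysozyme gene Lyc2, the copy that this probe reports is uncertain.

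Sprague-Dawley weanlings, 4 weeks old, were given a Lieber and DeCarli diet with ethanol or were pair-fed, in both cases for 4 weeks. Rats of each diet then had a closed, pinned mid-shaft fracture in the right hind-limb or no surgical fracture, and RNA came from the callus region, or its counterpart in the limb without fracture, after 3 days. The labels do not say whether limbs without fracture were pinned. The 4 groups were pair-fed fracture (PF), pair-fed no fracture (PN), alcohol-fed fracture (AF) and alcohol-fed no fracture (AN), with 3 numbered samples each, which the labels do not describe as separate animals, so that p-values may measure technical spread. The 6 possible pairings of groups were hybridised on 2-colour arrays, each with a dye swap, every numbered sample was used in 1 pairing, and each pairing gave 1 log ratio per probe.

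Macrophages reach a fracture early, clear debris and dead cells, and release signals for the cells that rebuild bone. Marrow holds their precursors, the monocytes, and a further relative, the osteoclast, which uses several of the same receptors. Lyz2 encodes the lysozyme that breaks bacterial walls, and neutrophils make it too. Cd14 encodes the co-receptor that hands endotoxin to the Toll-like receptor Tlr4. Csf1r encodes the receptor for the growth factor Csf1, on which macrophages and osteoclasts depend. Trem2 encodes a lipid-sensing surface receptor, and Tyrobp encodes DAP12, the adaptor through which Trem2 and related receptors signal. Cd163 encodes the receptor that takes up haemoglobin bound to haptoglobin and marks resident, tissue-clearing macrophages.

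Promoters are shown for the member with the smallest p in the fracture comparison (Lyz2), for Cd14 and Csf1r, and for Cd163. The ratios of Cd14 and Csf1r had a Pearson r of 0.886 and 0.903 with those of Lyz2, and those of Cd163 had an r of -0.419. Trem2, with an r of 0.246 with Lyz2, has a promoter that is not shown. Each is the RefSeq window from 250 bases before to 50 bases after the annotated start, read 5′ to 3′ along the gene, with matches on either strand to GAGGAA, the core of the site of the myeloid factor PU.1, in capitals.
Lyz2 (GRCr8 chr7:54797962-54798261, minus strand): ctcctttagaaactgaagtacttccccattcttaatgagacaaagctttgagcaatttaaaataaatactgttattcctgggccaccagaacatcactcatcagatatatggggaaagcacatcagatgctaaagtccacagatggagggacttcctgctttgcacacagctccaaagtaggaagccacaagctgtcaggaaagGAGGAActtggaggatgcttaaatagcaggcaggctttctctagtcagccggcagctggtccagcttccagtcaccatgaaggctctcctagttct
Cd14 (GRCr8 chr18:28611109-28611408, minus strand): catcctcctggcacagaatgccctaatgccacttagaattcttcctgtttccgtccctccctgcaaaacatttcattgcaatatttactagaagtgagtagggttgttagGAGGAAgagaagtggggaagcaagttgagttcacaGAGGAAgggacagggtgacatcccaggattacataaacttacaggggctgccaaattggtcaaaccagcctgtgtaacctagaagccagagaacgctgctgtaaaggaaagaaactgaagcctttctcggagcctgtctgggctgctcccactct
Csf1r (GRCr8 chr18:56834129-56834428, plus strand): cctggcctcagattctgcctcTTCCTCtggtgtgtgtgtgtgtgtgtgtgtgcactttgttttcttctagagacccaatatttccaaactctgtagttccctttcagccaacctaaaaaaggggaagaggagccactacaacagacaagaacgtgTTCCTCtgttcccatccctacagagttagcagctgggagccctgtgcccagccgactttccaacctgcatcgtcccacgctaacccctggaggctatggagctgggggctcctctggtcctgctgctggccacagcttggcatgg
Cd163 (GRCr8 chr4:158770524-158770823, plus strand): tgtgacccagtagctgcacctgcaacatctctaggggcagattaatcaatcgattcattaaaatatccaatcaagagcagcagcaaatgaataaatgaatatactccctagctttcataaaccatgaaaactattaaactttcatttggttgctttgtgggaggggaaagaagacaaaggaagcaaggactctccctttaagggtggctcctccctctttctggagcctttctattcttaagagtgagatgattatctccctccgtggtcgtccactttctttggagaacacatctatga

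Of the 7 genes, all but Tyrobp had a promoter in the reference table, and 5 of these 6 (Lyz2, Cd14, Cd68, Csf1r and Trem2) held GAGGAA on either strand, while Cd163 did not. Among all 33469 promoters of the same length, 27.6% held it. Relative to the start used for the window, the match began at -46 in Lyz2 and at -140 and -105 in Cd14. In Csf1r it began at -229 and -95, on the opposite strand (capitals TTCCTC). For these genes that start lay inside the RefSeq gene span. The span reaches 54798060 for Lyz2 and 28611409 for Cd14, both on the minus strand, and begins at 56834152 for Csf1r. All these matches but the one at -229 thus began within the gene span, and the window of Cd14 lay wholly within it. A C/EBP core, TTGCNNAA, was found in Lyz2 and Trem2 (10.6% of all promoters), and an AP-1 core, TGANTCA, in Cd68 and Trem2 (7.3%). These matches describe letters only, and no binding was measured.

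Values are log ratios, and as no source used here names the base of the logarithm, no fold is quoted. The group named first in a pairing was taken as the numerator, which the labels do not settle, since both dyes are listed for both channels. The columns PF over AF and PF over AN had a Pearson correlation of -0.616 across probes although both hold PF, so the signs of single columns are unsettled too. Among columns sharing a group in the same place, PF over AN had 0.258 with PF over PN, 0.234 with AF over AN and -0.273 with PN over AN. PF over AF had 0.392 with PN over AF and -0.216 with PF over PN. These values do not single out PF over AN, and PF over AF was not turned alone. Comparisons are also given with the column PF over AN turned, though not for every gene or list. In that setting group differences left 0.317 of the sum of squares unexplained. The share was 0.403 with the signs of the titles, and 0.5 would be expected with no group differences. Were the second-named group the numerator throughout, all signs would be opposite, with sizes and p as given. The standard deviation over probes ran from 0.252 (PF over PN) to 0.573 (AF over AN). Values within a column are relative to its mean, and in tissue RNA a difference in the number of cells and one in the RNA per cell cannot be told apart.

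The deposited ratios come first, beginning with the phagocyte enzyme gene. Lyz2 was at -0.11 for PF over PN, -0.40 for PF over AF, 0.09 for PF over AN, -0.38 for PN over AF, 0.46 for PN over AN and 0.94 for AF over AN. The ratio lay towards AF on all 3 pairings with AF and away from AN on PN over AN and AF over AN, with PF over AN, a column of doubted sign, close to 0. The co-receptor gene Cd14 was at -0.07 for PF over PN, -0.68 for PF over AF, 0.52 for PF over AN, -0.25 for PN over AF, 0.08 for PN over AN and 1.22 for AF over AN. It too lay towards AF on each pairing with AF, while PF over PN and PN over AN were close to 0. The 0.52 on PF over AN, away from AN, would be -0.52, towards AN, with that column turned.

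The adaptor gene Tyrobp was at -0.20 for PF over PN, -0.19 for PF over AF, -0.05 for PF over AN, -0.23 for PN over AF, 0.48 for PN over AN and 0.89 for AF over AN. The growth factor receptor gene Csf1r was at -0.06 for PF over PN, -0.02 for PF over AF, -0.05 for PF over AN, -0.33 for PN over AF, 0.27 for PN over AN and 0.40 for AF over AN. Both lay towards AF and away from AN on AF over AN, towards AF on PN over AF and away from AN on PN over AN. PF over AN was near 0 for both, and so was PF over AF for Csf1r. Csf1r varied least of the members, with a root mean square ratio of 0.240, lower than in most rows (percentile 37.4), against 0.438 for Tyrobp, 0.488 for Lyz2 and 0.618 for Cd14.

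The scavenger receptor gene Cd163 ran differently, at -0.45 for PF over PN, 0.74 for PF over AF, -0.18 for PF over AN, 0.67 for PN over AF, 0.01 for PN over AN and 0.09 for AF over AN. Its ratio lay away from AF on both pairings with a pair-fed group and near 0 on the pairing with AN. The receptor gene Trem2 was at 0.08 for PF over PN, -1.19 for PF over AF, 1.29 for PF over AN, 0.00 for PN over AF, -0.15 for PN over AN and -0.01 for AF over AN. Only the pairings of PF with the alcohol-fed groups were far from 0, in opposite directions, while the ratio of AF over AN was near 0. No set of 4 group levels can give such ratios exactly, and with the titles' signs the groups left 0.779 of the sum of squares of Trem2 unexplained, against 0.0503 for Lyz2, 0.127 for Cd14, 0.164 for Tyrobp, 0.311 for Csf1r and 0.387 for Cd163. With the column PF over AN turned, the share fell to 0.251 for Trem2, 0.125 for Tyrobp, 0.221 for Csf1r and 0.331 for Cd163. It rose to 0.109 for Lyz2 and 0.253 for Cd14.

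**Figure D1:**
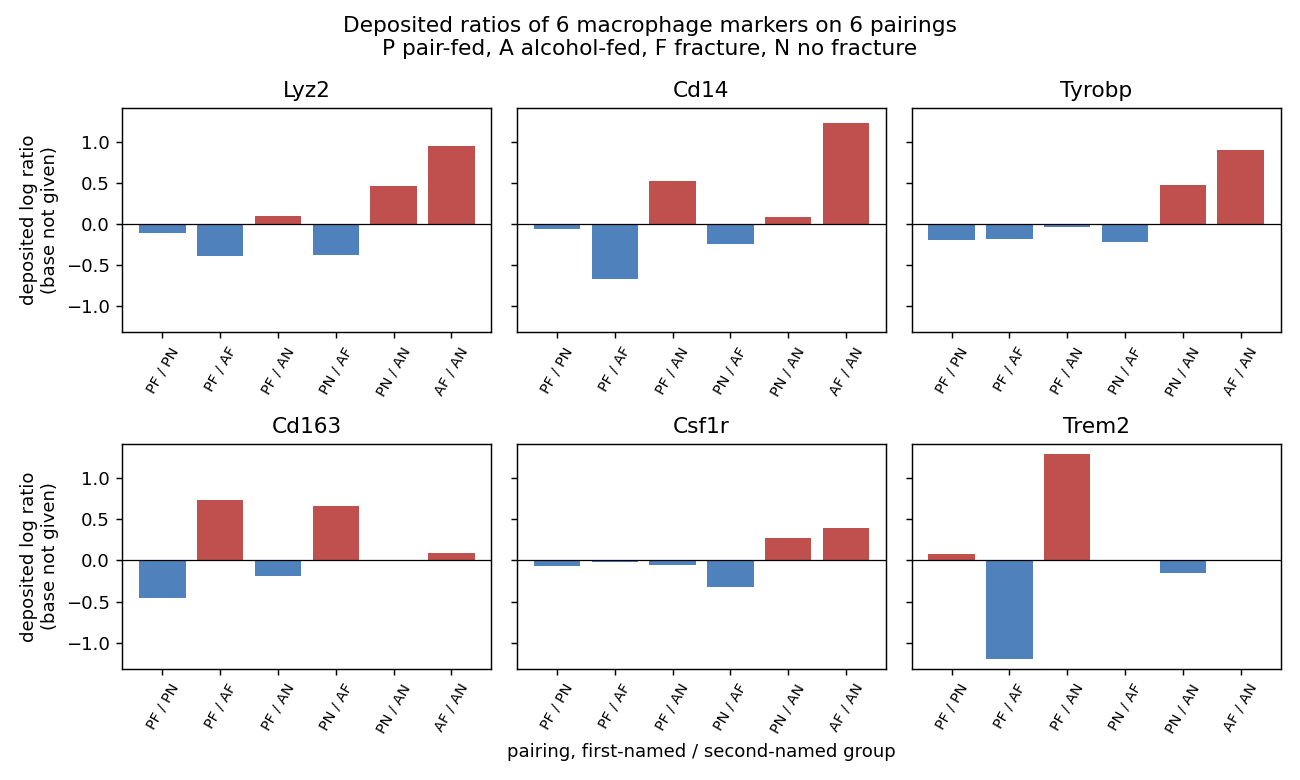
Deposited log ratios (y axis, base not given) of the 6 measured macrophage markers on the 6 pairings (x axis, first-named over second-named group), 1 bar per pairing, red above and blue below 0. Lyz2, Cd14, Tyrobp and Csf1r have their highest bar on AF over AN (0.40 to 1.22), whereas Trem2 is far from 0 only on PF over AF (-1.19) and PF over AN (1.29).

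As a description over 6 pairings that share groups and arrays, the ratios of Lyz2 had a Pearson r of 0.968 with those of Tyrobp, 0.903 with Csf1r and 0.886 with Cd14. Tyrobp and its receptor gene Trem2 had an r of 0.0394, and Cd163 had a negative r with each of the other 5 members, from -0.621 with Trem2 to -0.198 with Tyrobp. Positions of the 4 groups were then fitted from all pairings, with their mean set to 0. Lyz2 stood at 0.43 in AF, 0.05 in PN, -0.10 in PF and -0.37 in AN, each ± 0.09 (SE). Cd14 stood at 0.54, -0.02, -0.06 and -0.46 in the same order (SE 0.12), Tyrobp at 0.33, 0.11, -0.11 and -0.33 (SE 0.11), and Csf1r at 0.19, 0.00, -0.03 and -0.15 (SE 0.10). For these 4 genes and for Trem2 (SE 0.27), AF was highest and AN lowest, an order found in 17.9% of all rows. With the column PF over AN turned it held for Lyz2, Tyrobp and Csf1r (13.9% of rows), while Cd14 had PF lowest and Trem2 had AN highest and PF lowest. Cd163 stood at 0.28 in PN, 0.03 in PF, 0.02 in AN and -0.33 in AF (SE 0.14), the same order with the column turned. Neighbours in these orders did not differ by a limma adjusted p under 0.05 in any member.

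**Figure D2:**
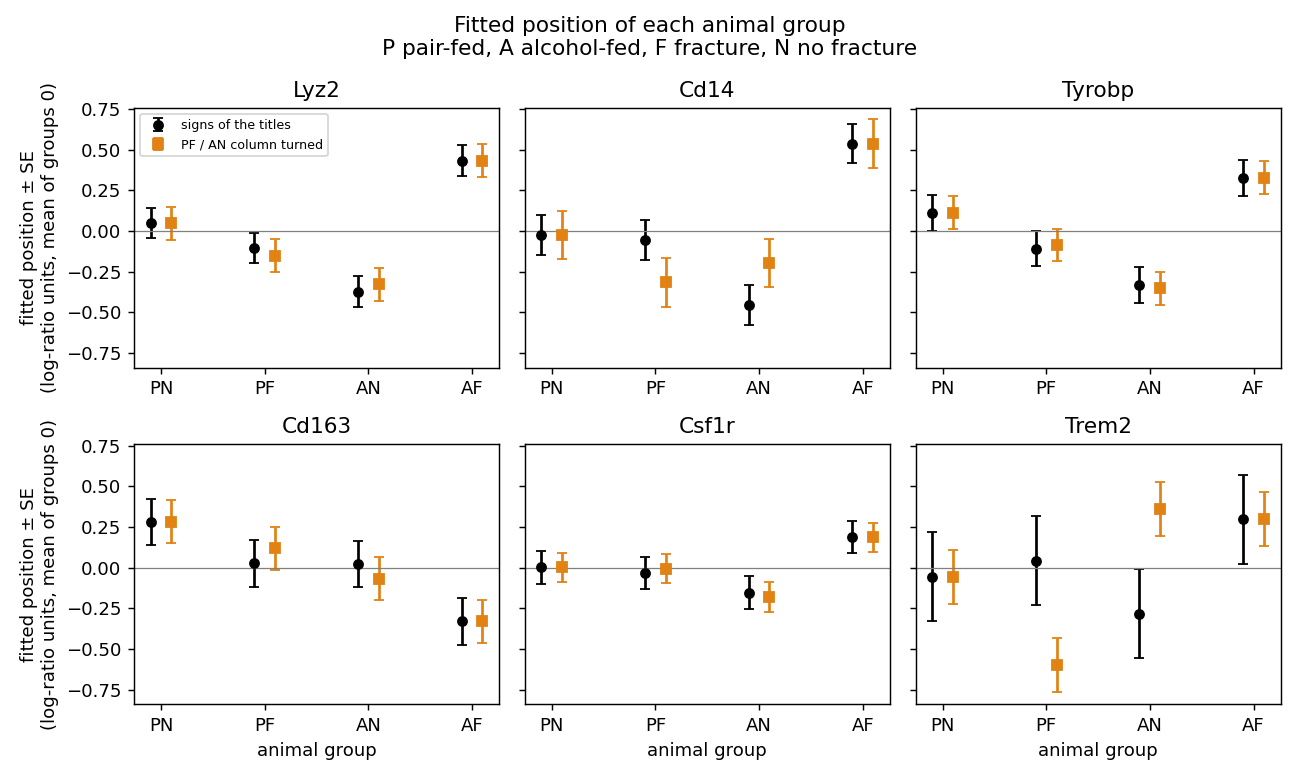
Fitted position of each animal group (x axis) in log-ratio units (y axis, mean of the 4 groups at 0) with its SE, for the signs of the titles (black circles) and with the column PF over AN turned (orange squares). AF is the highest group for Lyz2, Cd14, Tyrobp and Csf1r in both settings, and the lowest for Cd163 in both, while the positions of Trem2 in PF and AN depend on the setting.

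Fracture on the alcohol diet was the comparison with members past the threshold. Lyz2 had a fitted difference, AF minus AN, of 0.81 ± 0.15 (SE; limma adjusted p = 0.043) and Cd14 one of 0.99 ± 0.20 (adjusted p = 0.0476). Tyrobp, at 0.66 ± 0.18 (adjusted p = 0.108), Csf1r, at 0.34 ± 0.16 (0.323), Trem2, at 0.58 ± 0.45 (0.551), and Cd163, at -0.35 ± 0.23 (0.481), did not pass. Limma thus called 2 of 6 members, both positive, where it called 4.24% of 23549 rows, 0.828% as positive and 3.41% as negative. By unadjusted p under 0.05, 3 of 6 members were positive, with Tyrobp the added one, against 18.9% of rows in either direction and 8.17% as positive. The median of the 6 members was 0.62, beside 0.02 over all rows. Lyz2 lay behind 3.27% of rows by p, and Cd14 behind 4%.

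The pairing AF over AN enters these values together with the paths through PF and through PN. For Lyz2 it gave 0.94, the path through PF 0.49 and that through PN 0.84. For Cd14 these routes gave 1.22, 1.20 and 0.33, and for Tyrobp 0.89, 0.14 and 0.70. All 3 routes were positive for these 3 genes, as they were in 16.3% of rows. With the column turned, the path through PF was 0.30 for Lyz2, 0.16 for Cd14, 0.24 for Tyrobp and 0.07 for Csf1r, so that all routes were positive for these 4 genes, against 19.8% of rows. The routes of Csf1r (0.40, -0.03 and 0.60) and of Cd163 (0.09, -0.92 and -0.66) disagreed in sign, and those of Trem2 were -0.01, 2.48 and -0.15, so its fitted 0.58 rested on the path through PF, which was -0.10 with the column turned.

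**Figure D3:**
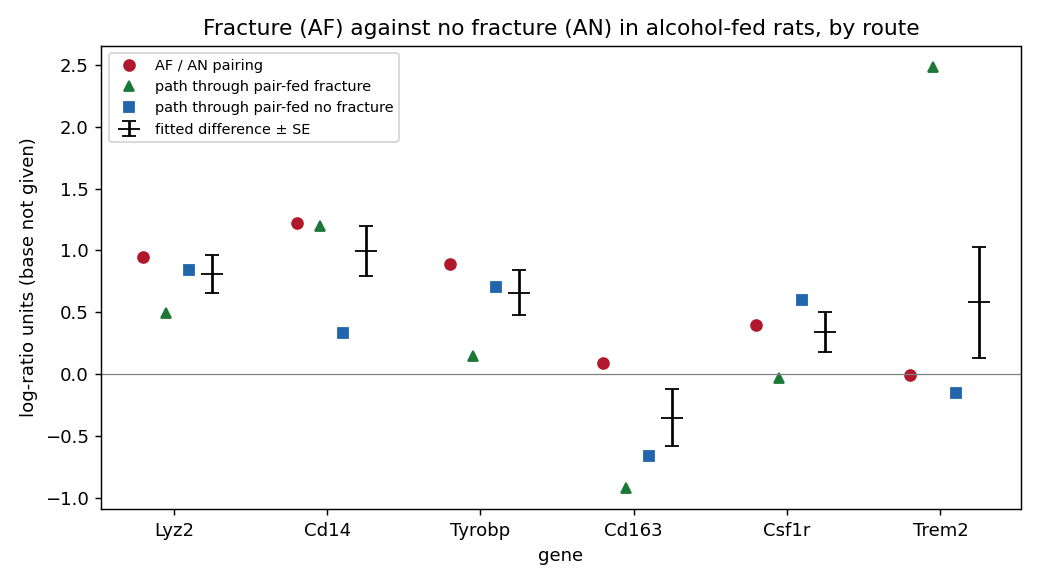
Difference between fracture (AF) and no fracture (AN) in alcohol-fed rats for each gene (x axis), in log-ratio units (y axis), from the AF over AN pairing (red circles), from the paths through PF (green triangles) and PN (blue squares), and as fitted with its SE (black). The 3 routes lie above 0 for Lyz2, Cd14 and Tyrobp, and 1 route at 2.48 stands apart for Trem2.

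Both calls were narrow. With the column PF over AN turned, Lyz2 was at 0.76 ± 0.17 (limma adjusted p = 0.12), Cd14 at 0.73 ± 0.24 (0.208), Tyrobp at 0.68 ± 0.16 (0.134) and Csf1r at 0.37 ± 0.15 (0.264), and limma called 0 members and 0 rows, with 4 members positive at an unadjusted p under 0.05, against 8.46% of rows. Without 1 pairing, Lyz2 kept its call only when PF over AF was left out (adjusted p = 0.0469, otherwise 0.0743 to 0.349), and Cd14 only without PN over AF (0.0493) or PN over AN (0.0391, otherwise 0.0718 to 0.391). The values of Lyz2 then lay between 0.67 and 0.89 and those of Cd14 between 0.77 and 1.17.

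In pair-fed rats the same comparison, PF minus PN, gave small values. Lyz2 was at -0.15 ± 0.15, Cd14 at -0.03 ± 0.20, Tyrobp at -0.22 ± 0.18, Csf1r at -0.04 ± 0.16, Cd163 at -0.26 ± 0.23 and Trem2 at 0.10 ± 0.45. Limma called 0 of 6 members and 0% of rows, and at an unadjusted p under 0.05 there were 0 members and 1.9% of rows. Turning the column PF over AN left 5 of these genes at negative values, with Cd14 at -0.29 ± 0.24, and put Trem2 at -0.54 ± 0.27. PF over PN was also the column with the smallest spread, and all columns weighed alike in the fit. Averaged over both diets, the fracture effect was 0.48 ± 0.14 for Cd14, 0.33 ± 0.11 for Lyz2 and 0.34 ± 0.32 for Trem2. Tyrobp was at 0.22 ± 0.13, Csf1r at 0.15 ± 0.11 and Cd163 at -0.305 ± 0.16. Limma called 0 of 6 members and 0% of rows. By unadjusted p under 0.05, Cd14 and Lyz2 were positive, against 5.24% of rows. With the column PF over AN turned, Lyz2 alone was, against 4.54% of rows.

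Whether the fracture response differed between the diets was tested as an interaction. It was 0.96 ± 0.22 for Lyz2, 1.03 ± 0.28 for Cd14 and 0.88 ± 0.25 for Tyrobp, with unadjusted p of 0.0035, 0.0093 and 0.012 and limma adjusted p of 0.189, 0.251 and 0.272. Csf1r was at 0.38 ± 0.23 (adjusted p = 0.636), Trem2 at 0.48 ± 0.63 (0.842) and Cd163 at -0.10 ± 0.33 (0.948). Limma called 0 of 6 members and 0% of rows. By unadjusted p under 0.05, 3 of 6 members were positive, against 3.81% of rows. The median of the members was 0.68, beside 0.04 over all rows.

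The columns PF over AN and PN over AF cancel out of the interaction, so its value is the same whichever way those columns run. PF over AF, the other column of the negative correlation, does enter it, as AF minus PF. That column was not turned alone, so the interaction still depends on its sign. It equals 0.5 of the sum of 4 differences, AF minus AN, PN minus PF, AF minus PF and PN minus AN, each from 1 pairing with its own numbered samples. For Lyz2 these were 0.94, 0.11, 0.40 and 0.46. For Cd14 they were 1.22, 0.07, 0.68 and 0.08, for Tyrobp 0.89, 0.20, 0.19 and 0.48, and for Csf1r 0.40, 0.06, 0.02 and 0.27. All 4 were positive in these 4 of 6 members, and in 8.34% of rows. Trem2 had 1 positive part of 4, AF minus PF at 1.19, and Cd163 had 3, opposed by AF minus PF at -0.74. With the column turned only the errors moved, and the adjusted p was 0.219 for Lyz2, 0.33 for Cd14 and 0.239 for Tyrobp, with the same 3 members at an unadjusted p under 0.05, against 4.83% of rows as positive.

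**Figure D4:**
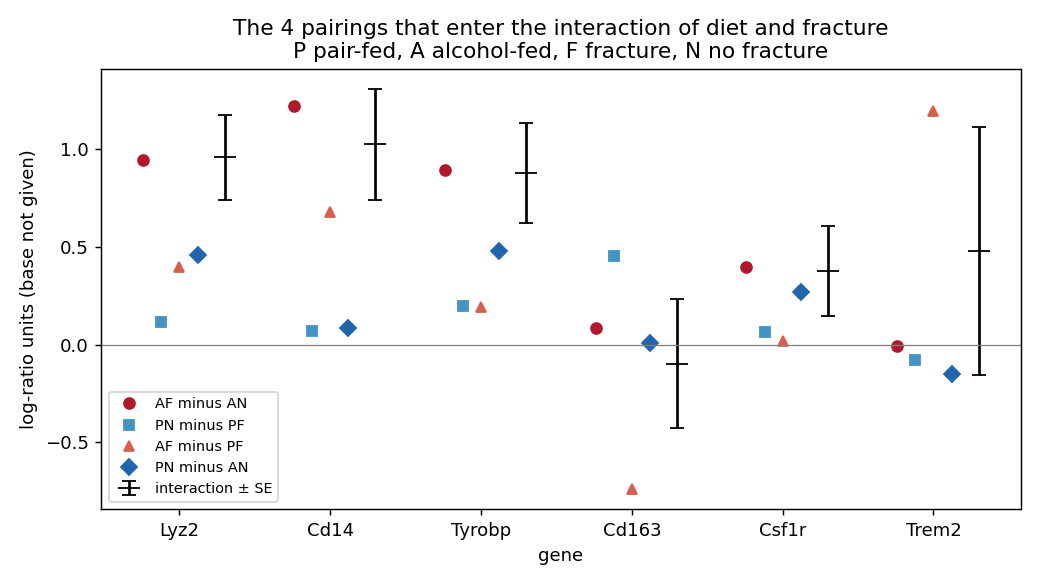
The 4 pairing differences that make up the interaction of diet and fracture (coloured symbols) and the interaction itself with its SE (black, 0.5 of their sum), in log-ratio units (y axis) for each gene (x axis). All 4 symbols lie above 0 for Lyz2, Cd14, Tyrobp and Csf1r.

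The effect of alcohol was compared in fractured rats as AF minus PF. Lyz2 was at 0.54 ± 0.15 (limma adjusted p = 0.256), Cd14 at 0.59 ± 0.20 (0.33) and Tyrobp at 0.44 ± 0.18 (0.427). Csf1r was at 0.22 ± 0.16, Trem2 at 0.25 ± 0.45 and Cd163 at -0.36 ± 0.23. Limma called 0 of 6 members and 0% of rows. At an unadjusted p under 0.05, 3 members were positive, against 4.68% of rows, and the pairing itself and both paths were positive for 4 members (Lyz2, Cd14, Tyrobp and Csf1r), against 16.8% of rows. With the column PF over AN turned, limma called 1.85% of rows (0.344% positive and 1.5% negative) and 0 members, with Cd14 at 0.85 ± 0.24 (0.123), Lyz2 at 0.58 ± 0.17 (0.123), Trem2 at 0.90 ± 0.27 (0.138) and Cd163 at -0.45 ± 0.21 (0.301). By unadjusted p under 0.05, 4 members (Lyz2, Cd14, Tyrobp and Trem2) were then positive, against 9.39% of rows, and the routes were all positive for the same 4 members as before, against 19.4% of rows.

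In unfractured rats the effect of alcohol, AN minus PN, was negative for all 6 members. Tyrobp was at -0.44 ± 0.18, Cd14 at -0.43 ± 0.20, Lyz2 at -0.42 ± 0.15, Cd163 at -0.26 ± 0.23, Trem2 at -0.23 ± 0.45 and Csf1r at -0.16 ± 0.16. For each of these the limma adjusted p was 0.999, and 0 members and 0% of rows were called. At an unadjusted p under 0.05, 2 members (Lyz2 and Tyrobp) were negative, against 1.34% of rows. The pairing and both paths were negative for 5 of 6 members, all but Trem2, against 12.7% of rows. With the column turned, Trem2 was positive at 0.42 ± 0.27 and Cd14 was at -0.17 ± 0.24. Only Tyrobp then had an unadjusted p under 0.05, against 3.24% of rows as negative, and the routes were all negative for 4 members (Lyz2, Tyrobp, Cd163 and Csf1r), against 17.8% of rows. The comparisons above share pairings, so their values are not separate observations.

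The group with both alcohol and fracture was also set against the group with neither, AF minus PN, a value that does not depend on the column PF over AN. Cd163 had its largest difference here, at -0.61 ± 0.23 (limma adjusted p = 0.297). Cd14 was at 0.56 ± 0.20 (0.27), Lyz2 at 0.38 ± 0.15 (0.32), Trem2 at 0.35 ± 0.45, Tyrobp at 0.22 ± 0.18 and Csf1r at 0.19 ± 0.16. Limma called 0 members and 0% of rows, and at an unadjusted p under 0.05 there were 3 members, Cd163 negative and Cd14 and Lyz2 positive, against 14.9% of rows. With the column turned, limma called 0.0595% of rows (0.0467% positive and 0.0127% negative) and 0 members, and Cd163 alone had an unadjusted p under 0.05, against 16.9% of rows, so that Cd14 and Lyz2 were lost from this count. Fracture alone over alcohol alone, PF minus AN, ran from 0.00 ± 0.23 for Cd163 to 0.40 ± 0.20 for Cd14, with 0 members at an unadjusted p under 0.05, against 2.73% of rows. With its own column turned it was -0.96 ± 0.27 for Trem2 and -0.12 ± 0.24 for Cd14, and 1 member, Trem2, had an unadjusted p under 0.05 (limma adjusted p = 0.623), against 7.87% of rows.

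Genes that act with the members were described next for fracture on the alcohol diet, from lists chosen with earlier results of these data known. Beside the counts of these and the later lists stand all rows, of which limma called 0.828% as positive and 3.41% as negative. The median over all rows was 0.02. Of 25 further markers of mononuclear phagocytes, 18 were measured, 10 positive and 8 negative, with a median of 0.03 and 0 calls. Among them Aif1, an actin-binding protein of macrophages, was at 0.46 ± 0.15, the mannose receptor Mrc1 at -0.46 ± 0.16, the monocyte chemokine receptor Ccr2 at 0.38 ± 0.21 and Spi1, which encodes PU.1, at -0.00094 ± 0.20. The median of the list was 0.02 with the column PF over AN turned, again with 0 calls.

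Genes listed around Trem2 and Tyrobp lay mostly a little below 0, with 11 of 13 measured genes negative, a median of -0.09 and 0 calls. The inhibitory phosphatase gene Inpp5d was at -0.47 ± 0.17, Gpnmb, a glycoprotein of lipid-laden macrophages, at -1.34 ± 0.58, and the kinase gene Syk, which docks on DAP12, at -0.02 ± 0.24. In the list around Csf1r, 6 of 9 genes were positive, and 1 passed, Irf8, a transcription factor of the monocyte and dendritic lineages, at -0.83 ± 0.17 (limma adjusted p = 0.0494). The ligand gene Csf1 was at 0.21 ± 0.19 and the myeloid factor gene Cebpa at 1.11 ± 0.35 (0.153). Once the column was turned, Irf8 was at -0.59 ± 0.20 (0.219) and these lists had 0 calls.

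Around Cd14, 5 of 8 endotoxin-sensing genes were negative and 0 passed. Lbp, which delivers endotoxin to Cd14, was at -0.49 ± 0.18, the signalling kinase gene Irak4 at -0.43 ± 0.16, Tlr2 at -0.39 ± 0.18 and Tlr4, the receptor that Cd14 serves, at 0.05 ± 0.26. Of the lysosomal genes of phagocytes, 10 of 12 were positive, with a median of 0.26 and 0 calls. The lysosomal membrane genes Lamp2 and Lamp1 were at 0.67 ± 0.17 and 0.91 ± 0.30, and the protease gene Lgmn was at 0.51 ± 0.16, with limma adjusted p between 0.0872 and 0.17. Of the 12, 9 were positive with the column turned, and the median was 0.25.

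Of the 11 haemoglobin-handling genes around Cd163, all measured, 6 were positive, up to 0.86, and 5 negative. Limma called 3 of them, all negative. They were Blvrb, a biliverdin reductase, at -0.81 ± 0.15 (limma adjusted p = 0.0385), Hmox1, which opens the haem ring, at -0.78 ± 0.16 (0.0493), and the haem-binding protein gene Hpx at -0.72 ± 0.14 (0.0465). Haptoglobin, Hp, whose complex with haemoglobin Cd163 binds, was at -0.01 ± 0.16, and the list's median was 0.05. With the column turned these called genes were at -0.66 ± 0.18, -0.68 ± 0.20 and -0.54 ± 0.17 and 0 passed. Of the activation genes, 6 of 14 were positive, and 3 passed: the monocyte-attracting chemokine gene Ccl7 at 2.47 ± 0.27 (adjusted p = 0.028), the chemokine gene Ccl4 at -1.14 ± 0.24 (0.0499) and Retnla, a marker of alternative activation in mice, at -0.91 ± 0.18 (0.0459). With the column turned Ccl7 was at 2.28 ± 0.31 and Ccl4 at -0.92 ± 0.16, and 0 passed.

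Marker lists of other cells had these values in the same comparison. Skeletal muscle markers were positive in 6 of 6, with a median of 1.14 (0.80 with the column turned) and with the fast troponin gene Tnni2 called at 2.08 ± 0.34 (limma adjusted p = 0.0329). Neutrophil markers, whose cells also make lysozyme, were negative in 7 of 9, with a median of -0.24 and with S100a9 called at -1.68 ± 0.22 (limma adjusted p = 0.028). Erythroid markers were split, with 4 of 8 positive, up to 1.23, and 4 negative, and had a median of -0.36. With the column turned 2 were positive and 6 negative, with a median of -0.94. Limma called 3 of the 8, all negative. They were the haem synthesis genes Alas2 at -2.17 ± 0.37 and Fech at -1.67 ± 0.27 and the globin chaperone gene Ahsp at -1.75 ± 0.20. Mast cell markers had a median of -0.24 with Tpsab1 called at -0.98 ± 0.16 (0.0332). Osteoclast markers, of which 5 of 12 were measured, had a median of 0.01, dendritic cell markers one of 0.20, B lymphocyte markers one of -0.29, T and NK cell markers one of -0.09, endothelial markers one of -0.12 and osteoblast markers one of 0.00, each with 0 calls. With the column PF over AN turned, 0 genes of these lists passed in this comparison, but for alcohol in fractured rats Ccl7 (2.21 ± 0.31), Ccl4 (-1.34 ± 0.16), Cd79b (-1.22 ± 0.21), Prf1 (-2.08 ± 0.31), Alas2 (-2.54 ± 0.33), Ahsp (-1.75 ± 0.20) and Tnni2 (2.16 ± 0.30) did, and Cd72 (-1.40 ± 0.13) did for AF minus PN. The part of these cells in the values of Lyz2, Cd14 and Tyrobp was not tested. Ratios carry no levels, so the presence of any cell type cannot be read from them.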

How the data were processed

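Per the labels' protocols, frozen tissue was milled, RNA extracted with Trizol, and amplified RNA coupled to Cy3 or Cy5. The authors deposited 1 log ratio per probe and pairing. The sources used here do not give its base, numerator, background correction, normalization or filters, and column means were near 0. Of 26503 probes, 22 control spots were left out. Symbols came from the platform annotation, 3638 of them updated through RefSeq synonyms (GRCr8). Averaging the probes of a gene left 23549 rows.

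All 6 pairings were fitted with limma 3.58.1 (R 4.3.3), with 1 for the first-named and -1 for the second-named group, 3 residual and 3.66 prior degrees of freedom. Tests were two-sided, Benjamini-Hochberg adjusted over all rows, with a threshold of 0.05. The fit was tried on simulated rows with known differences, with the titles' signs and the same noise spread in every column. That trial therefore cannot show whether the column signs are right or what unequal column spreads do. Promoters are from RefSeq. The members, gene lists and alternatives were chosen with earlier results of these data known. Named genes were the members, called list genes, list genes with the smallest p, nearest rows, and Spi1, Syk, Csf1, Tlr4 and Hp, which were picked by role after the values were seen.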

Additional observations from a re-analysis of the deposited data

How the results depend on the processing

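The number of arrays limits every value, and signal over background is not used here. For fracture in alcohol-fed rats, 2 members and 999 rows passed. These became 0 and 0 with the column PF over AN turned, 0 and 469 with columns scaled to 1 spread, 0 and 2 without moderated variances, and 1 member without the least variable rows (Lyz2 adjusted p = 0.0567), while 568 rows passed among rows with 1 symbol. Leaving out 1 pairing gave 0 to 1 members and 0 to 918 rows. The causes were not tested. In each of the other comparisons 0 members passed under every alternative run, and where 0 rows had passed, 435 did for alcohol in fractured rats with the column turned, 180 without the least variable rows and 4 without moderation. For AF minus PN these were 14, 186 and 2, with 35 after scaling and 0 to 7 without 1 pairing, for the average fracture effect 36 without the least variable rows and 1 without moderation, and for the interaction 1 and 2. Turning all columns mirrors every value.

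With the column PF over AN turned, Trem2 changed sign for fracture in alcohol-fed rats (-0.066), fracture in pair-fed rats (-0.54), alcohol in unfractured rats (0.42), the average fracture effect (-0.31) and PF minus AN (-0.96), and Cd14 for PF minus AN (-0.12). Scaling turned Cd163 in the interaction (0.12) and PF minus AN (-0.11). The direct pairing alone turned Cd163 (0.085) and Trem2 (-0.0081) for fracture in alcohol-fed rats, Trem2 for alcohol in unfractured rats (0.15) and AF minus PN (-0.0012), and Tyrobp (-0.046), Cd163 (-0.18) and Csf1r (-0.053) for PF minus AN. Leaving out 1 pairing gave signs of both kinds for fracture in pair-fed rats in Cd14 (-0.21 to 0.12), Csf1r (-0.14 to 0.052) and Trem2 (-0.38 to 0.57), for alcohol in fractured rats in Cd163 (-0.575 to 0.028) and Trem2 (-0.69 to 0.73), for PF minus AN in Cd163 (-0.22 to 0.19) and Trem2 (-0.64 to 0.80), for the interaction in Cd163 (-0.54 to 0.29) and Trem2 (-0.46 to 1.06), and in Trem2 for alcohol in unfractured rats (-0.60 to 0.26), AF minus PN (-0.12 to 0.71) and the average fracture effect (-0.14 to 0.63). Lyz2 and Tyrobp kept their signs whichever pairing was left out. No paired analysis was possible because each pairing holds its own numbered samples.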

Other observations

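The named genes whose 6 deposited ratios lay nearest to those of each member, by root mean square difference, were as follows, as a description over 6 pairings that share groups. Lyz2 was nearest to Zhx1 (0.102), Tomm20 (0.104) and Tspan14 (0.111). Tspan14, a tetraspanin, was also the nearest to Tyrobp (0.0861), ahead of Rprd1a (0.0981) and Tor3a (0.108). Cd14 was nearest to Or1m1 (0.0855), Mfsd8 (0.118), a lysosomal membrane transporter, and S100a10 (0.16). Csf1r was nearest to Pgs1 (0.0543), Or56a3b (0.0556) and Arhgef10 (0.06). Cd163 was nearest to Kcnip4 (0.137), Chst7 (0.168) and Hdac5 (0.173), and Trem2 to Nucks1 (0.102), Tmem14a (0.145) and Ensa (0.175). None of these neighbours is a member or stands in the phagocyte lists. The residual standard deviation of Trem2, 0.899, exceeded that of 97.7% of rows.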
